A study of Arabidopsis thaliana with 67 samples.

Results

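The comparison described here set 3 sperm libraries of an Arabidopsis thaliana line labelled ago59, read as the ago5 ago9 double mutant, against 3 sperm libraries of the wild type (wt), chosen by their titles out of 67 libraries in the series. The ago5 and ago9 single mutants had 3 sperm libraries each, and ago59 and wt had 4 libraries each from the vegetative nucleus of pollen. All plants were of the ecotype Col-0 and 35 d old, nuclei were taken from pollen into Trizol, and 2 ng of RNA entered a Smart-seq2 library. The labels name neither the alleles, nor whether a line carries a transgene, nor whether replicates came from separate plants, so p-values measure the spread between these libraries, which may be technical. The wt pollen columns of the deposited table carry the number 21 where the others carry a genotype, and every wt value rests on reading those 7 columns as wt.

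ARGONAUTE (AGO) proteins hold small RNAs and use them to find matching transcripts or loci, which are then cleaved, repressed or marked by DNA methylation. In Arabidopsis, AGO5 belongs to the AGO1 clade and AGO9 to the AGO4 clade, a clade tied to small RNAs made from transposable elements (TEs) and repeats. Mature pollen holds a pair of sperm cells inside a large vegetative cell, and TE silencing differs between the sperm and the vegetative nucleus.

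The libraries of ago59 and wt sperm held 7.97 to 9.47 M counts (M is 1000000), with 9623 features (9270 gene rows and 353 TE rows) passing the filter on low counts. Between 1.91% and 4.40% of the counts of the 12 sperm libraries fell on genes of the organelles and of ribosomal RNA. The summed level of 21 sperm markers was 69371 to 122996 CPM (counts scaled to a library total of 1000000) in ago59 and 74412 to 107323 CPM in wt. That of 19 vegetative markers was 10464 to 11403 CPM in ago59 sperm and 10851 to 13422 CPM in wt sperm, ranges that overlap, against 43295 to 50784 CPM in ago59 vegetative and 50365 to 56983 CPM in wt vegetative libraries. Most of that sum in sperm was VGD1, at 6281 ± 490 CPM in ago59 and 6865 ± 304 CPM in wt (SD, n = 3 each). Vegetative markers were thus detected in every sperm library, and the part of vegetative RNA in the results below was not tested. Tapetum markers summed to at most 3.69 CPM in ago59 and 1.76 CPM in wt. Among the leaf markers RBCS3B alone was high, at 331 ± 41.0 CPM in ago59 and 347 ± 10.6 CPM in wt (SD, n = 3 each). More features had a count in ago59 sperm 1 (21465) and wt sperm 1 (20582) than in the other 10 sperm libraries (15146 to 18349). Calls of ago59 against wt are therefore also given without this pair of libraries where that changed them. For ago59 against ago9 or ago5, no calls without this pair are given. In these bulk samples, fewer nuclei of a type and less RNA per nucleus cannot be told apart.

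AGO5 and AGO9, the genes named in the genotype, were both far lower in ago59 than in wt sperm, and each lay at the level of the single mutant of its own name. AGO5 (AT2G27880) had 2.88, 3.91 and 2.30 CPM in ago59, 3.52, 1.96 and 1.42 CPM in ago5, 32.1, 41.7 and 39.1 CPM in ago9, and 32.8, 44.8 and 46.6 CPM in wt. AGO9 (AT5G21150) had 55.3, 53.8 and 31.1 CPM in ago59, 931, 776 and 782 CPM in ago5, 28.5, 47.9 and 34.4 CPM in ago9, and 703, 767 and 759 CPM in wt. For both genes the libraries fell into a low and a high set with no overlap, and ago59 stood in the low set of each, so these levels fit the ago59 label. The log2 change of ago59 over wt was -3.79 ± 0.22 (SE) for AGO5, with an adjusted p of 1.66e-09 in edgeR's quasi-likelihood test, and -4.07 ± 0.16 for AGO9, with an adjusted p of 6.68e-12. Neither transcript was absent: AGO9 kept 257 to 509 counts per ago59 library and AGO5 kept 19 to 37.

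**Figure D1:**
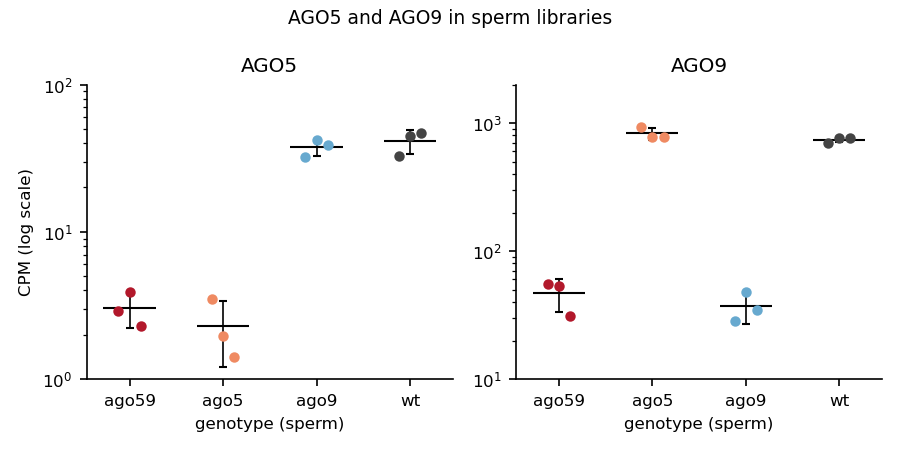
CPM of AGO5 and AGO9 on log axes in the 3 sperm libraries of each genotype, with one point per library and the group mean and SD as a line and bar. The ago59 libraries lie with ago5 for AGO5 (2.30 to 3.91 CPM) and with ago9 for AGO9 (31.1 to 55.3 CPM), below every wt library.

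The 8 other AGO genes gave no further call. AGO6 and AGO10 were the only ones of them to pass the filter, at 1.34 ± 0.53 CPM in ago59 and 0.71 ± 0.62 CPM in wt for AGO6, and at 1.77 ± 0.61 CPM in ago59 and 1.59 ± 0.40 CPM in wt for AGO10 (SD, n = 3 each). AGO1, AGO2, AGO3, AGO4, AGO7 and AT5G21030 averaged under 1 CPM in both groups. The genes beside the target loci were also read. AXS1, next to AGO5, averaged 544 CPM in ago59 and 525 CPM in wt, a log2 change of 0.00 ± 0.17. LARP1a (AT5G21160), the gene that follows AGO9 and encodes a La-related RNA-binding protein, had 1.15, 1.80 and 0.61 CPM in ago59, 0.84, 2.04 and 1.38 CPM in ago9, 2.73, 2.23 and 3.20 CPM in ago5, and 3.83, 3.18 and 4.90 CPM in wt. The ago59 and wt libraries did not overlap, and the ago9 libraries all lay below the wt ones. The log2 change of LARP1a in ago59 was -1.77 ± 0.40 but its adjusted p was 0.122 by edgeR, so it was not called; it was called without the low-count filter and with DESeq2. It rested on 5 to 17 counts in an ago59 library and 29 to 39 in a wt library. On the other side of AGO9, emb1379 averaged 20.3 CPM in ago59 and 21.8 CPM in wt.

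Over all features, 14 of 9623 were called between ago59 and wt sperm (0.145%), 7 higher (0.0727%) and 7 lower (0.0727%), at a Benjamini-Hochberg adjusted p under 0.05. Among gene rows, 7 of 9270 were called (0.0755%), 2 higher (0.0216%) and 5 lower (0.0539%), AGO5 and AGO9 included. Among TE rows, 7 of 353 were called (1.98%), 5 higher (1.42%) and 2 lower (0.567%). CPM did not overlap between the groups for any of the 14, which held for 5.06% of all features tested (3.15% higher and 1.91% lower in ago59). Of gene rows 2.98% were higher and 1.86% lower without overlap, and of TE rows 7.65% were higher and 3.4% lower. The median log2 change was 0.00 over all features and 0.11 over TE rows, and 3.86% of all features but 13.3% of TE rows had an estimated change larger than 1 in size. TE rows were also the lower in abundance, with a median of 3.07 CPM against 7.45 CPM for gene rows, and whether their wider spread comes with that was not tested. An unadjusted p under 0.05 was found for 7.68% of features.

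**Figure D2:**
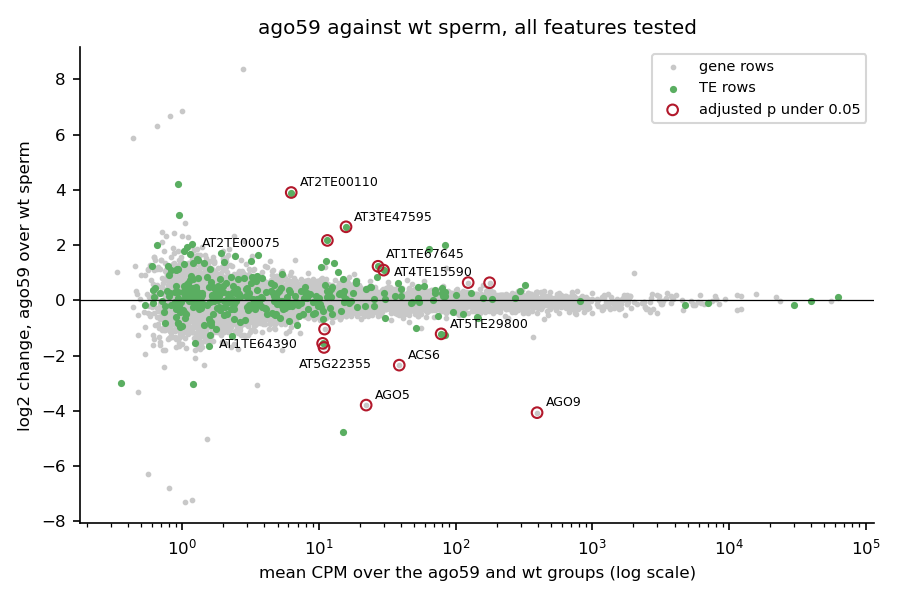
Log2 change of ago59 over wt sperm (y axis) against the mean CPM of both groups (x axis, log scale) for the 9623 features tested, with gene rows in grey, TE rows in green and the 14 called features ringed. The ringed points lie on both sides of 0, and AGO9 and AGO5 are the lowest of them. The 3 unlabelled rings are HSP70 and NBR1 above 0 and ATSYTF below.

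ACS6 (AT4G11280), which encodes an ACC synthase, the enzyme class that makes the precursor of the hormone ethylene, showed the largest fall among the called features after the targeted genes. It had 13.8, 13.1 and 11.9 CPM in ago59, 54.7, 41.1 and 46.8 CPM in ago5, 28.8, 28.1 and 23.3 CPM in ago9, and 55.1, 64.7 and 74.1 CPM in wt. The genotypes were ordered without overlap between ago59 and ago9 or between ago9 and ago5, while the highest ago5 library lay just under the lowest wt one. ACS6 was 0.197 of its wt level in ago59, a log2 change of -2.35 ± 0.16 with an adjusted p of 2.28e-08 (edgeR). The double mutant was also below each single mutant, by -1.29 ± 0.16 on the log2 scale against ago9 (adjusted p = 4.71e-04) and -1.84 ± 0.16 against ago5 (adjusted p = 2.16e-06), both by edgeR. The gene before it, AT4G11270, averaged 69.4 CPM in ago59 and 68.6 CPM in wt.

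AT5G22355, a member of the cysteine/histidine-rich C1 domain family in the RefSeq annotation, also fell. It had 6.34, 5.60 and 3.63 CPM in ago59, 12.9, 6.42 and 12.4 CPM in ago5, 2.42, 4.08 and 3.58 CPM in ago9, and 11.4, 17.3 and 21.2 CPM in wt. The ago59 and ago9 libraries lay below all wt libraries and overlapped each other. The log2 change in ago59 was -1.71 ± 0.23 (adjusted p = 8.16e-04 by edgeR), and ago59 against ago9 gave 0.40 ± 0.26 (adjusted p = 0.426).

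ATSYTF (AT3G18370), which encodes a C2 domain protein, had 8.99, 7.50 and 5.69 CPM in ago59, 8.29, 6.84 and 10.3 CPM in ago5, 11.1, 13.1 and 11.6 CPM in ago9, and 12.6, 17.0 and 14.3 CPM in wt. The ago59 and ago5 libraries overlapped and all lay below wt. Its log2 change of -1.04 ± 0.19 had an adjusted p of 0.0234 by edgeR. The locus overlaps AT3G03675, and since strand handling is not given, reads of the 2 cannot be told apart.

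The 2 gene rows that rose were HSP70 and NBR1. HSP70 (AT3G12580), a cytosolic heat shock chaperone, had 169, 152 and 135 CPM in ago59, 121, 105 and 108 CPM in ago5, 89.6, 116 and 91.1 CPM in ago9, and 77.3, 104 and 106 CPM in wt. NBR1 (AT4G24690), a receptor that delivers ubiquitinated cargo to autophagy, had 237, 213 and 203 CPM in ago59, 186, 155 and 180 CPM in ago5, 143, 189 and 163 CPM in ago9, and 121, 135 and 158 CPM in wt. In both cases every ago59 library was above every library of the other genotypes, but neither gene was called in ago59 against ago9 or ago5. NBR1 was also called in ago9 against wt (log2 0.45 ± 0.12, adjusted p = 0.0464). Against ago9, ago59 gave 0.19 ± 0.12 for NBR1 (adjusted p = 0.423) and 0.40 ± 0.12 for HSP70 (adjusted p = 0.0516), all by edgeR. The rises were modest, at log2 0.64 ± 0.12 for HSP70 (adjusted p = 0.0249) and 0.64 ± 0.12 for NBR1 (adjusted p = 0.0301) by edgeR, and NBR1 overlaps AT4G24700.

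ATSYTF, HSP70 and NBR1 were the calls nearest the threshold. Each was lost when the 2 groups were fitted alone, when ago59 sperm 1 and wt sperm 1 were both left out, and in 5 of the 6 fits that left out a single ago59 or wt library. Their edgeR adjusted p reached 0.192 for ATSYTF, 0.198 for HSP70 and 0.198 for NBR1 over these fits. ATSYTF stayed called without wt sperm 3, and HSP70 and NBR1 without ago59 sperm 1.

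Among 10 genes of heat shock and oxidative stress, HSP70 and NBR1 not among them, 8 passed the filter and none was called; 1, APX1, had an unadjusted p under 0.05, and the median log2 change was 0.09, against 0.00 over all features. APX1, the cytosolic ascorbate peroxidase, averaged 17.1 ± 0.80 CPM in ago59 and 11.1 ± 1.08 CPM in wt (SD, n = 3 each; adjusted p = 0.474 by edgeR). HSP90.1 averaged 3.96 ± 0.60 CPM in ago59 and 2.02 ± 0.85 CPM in wt (adjusted p = 0.659). HSP17.4 (AT3G46230), a small heat shock protein outside that list, had 58.1, 65.5 and 45.2 CPM in ago59 and 29.8, 33.6 and 34.9 CPM in wt, without overlap, but with an adjusted p of 0.0802 by edgeR it was not called, whereas it was with DESeq2, with robust quasi-likelihood and without the low-count filter (smallest adjusted p = 0.00614); its locus overlaps AT3G46220 and AT3G07365.

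Of the 5 TE rows that rose, AT2TE00110 and AT2TE00075 carry close numbers on chromosome 2. AT2TE00110 had 10.6, 13.6 and 11.3 CPM in ago59, 2.61, 3.35 and 2.25 CPM in ago5, 5.69, 5.75 and 5.09 CPM in ago9, and 1.55, 0.66 and 0 CPM in wt. All ago59 libraries were above all others, and the ago9 libraries were the next highest, with no overlap with ago5 or wt. The log2 change in ago59 was 3.90 ± 0.51 (adjusted p = 5.68e-04 by edgeR), from 92 to 129 counts in an ago59 library against 0 to 13 in a wt library. The difference between ago59 and ago9 was not called, at 0.88 ± 0.40 (adjusted p = 0.228).

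AT2TE00075 had 16.9, 23.7 and 16.4 CPM in ago59, 5.22, 5.45 and 4.50 CPM in ago5, 5.16, 5.27 and 4.54 CPM in ago9, and 3.11, 5.49 and 3.77 CPM in wt. Only the ago59 libraries stood out, and those of the single mutants overlapped wt. Its log2 change was 2.17 ± 0.25 over wt (adjusted p = 1.15e-04), 1.69 ± 0.25 over ago9 (adjusted p = 0.0013) and 1.95 ± 0.25 over ago5 (adjusted p = 7.46e-04), all by edgeR. The rows numbered between the 2 had at most 3 counts in a sperm library, except AT2TE00095. That row had 19.0, 75.0 and 19.1 CPM in ago59 and 143, 32.5 and 20.2 CPM in wt, overlapping widely.

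AT3TE47595 had 26.4, 23.5 and 31.7 CPM in ago59, 10.1, 12.6 and 6.63 CPM in ago5, 4.43, 6.47 and 4.82 CPM in ago9, and 3.11, 3.18 and 7.03 CPM in wt. Every ago59 library was above every other library, while ago5 overlapped wt in its lowest library. The log2 change was 2.66 ± 0.30 over wt (adjusted p = 7.19e-05), 2.20 ± 0.29 over ago9 (adjusted p = 6.00e-04) and 1.55 ± 0.27 over ago5 (adjusted p = 0.0192) by edgeR.

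AT1TE67645 had 34.6, 44.2 and 35.6 CPM in ago59, 13.9, 17.6 and 17.1 CPM in ago5, 24.9, 22.5 and 20.0 CPM in ago9, and 13.5, 16.0 and 18.8 CPM in wt. The ago59 libraries were highest, ago9 came between without overlap, and ago5 overlapped wt. Its log2 change over wt was 1.23 ± 0.19 (adjusted p = 0.00373 by edgeR). The ago9 change over wt was also called, at 0.70 ± 0.19 (adjusted p = 0.0497). The difference between ago59 and ago9 was not, at 0.53 ± 0.18 (adjusted p = 0.102 by edgeR).

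AT4TE15590 had 43.2, 38.1 and 41.3 CPM in ago59, 34.8, 32.5 and 29.4 CPM in ago5, 20.7, 20.1 and 21.7 CPM in ago9, and 20.4, 17.7 and 17.8 CPM in wt. Here ago5 came next to ago59, and the lowest ago9 library lay within the wt range. The log2 change of 1.09 ± 0.19 over wt had an adjusted p of 0.0144 by edgeR. This call was lost without ago59 sperm 3, without wt sperm 2 and without wt sperm 3, with an adjusted p of up to 0.162.

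Of the 2 TE rows that fell, AT1TE64390 had 4.73, 5.70 and 5.81 CPM in ago59, 24.0, 18.3 and 18.5 CPM in ago5, 12.2, 11.7 and 7.02 CPM in ago9, and 13.2, 15.3 and 19.3 CPM in wt. The ago59 libraries were the lowest of all 12, and ago59 was below wt (log2 -1.56 ± 0.24, adjusted p = 0.00446), ago9 (-1.17 ± 0.25, adjusted p = 0.00864) and ago5 (-1.85 ± 0.24, adjusted p = 8.59e-04) in edgeR's test. Without ago59 sperm 1 and wt sperm 1 together the call against wt was lost (adjusted p = 0.116 by edgeR).

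AT5TE29800 had 76.7, 49.1 and 24.0 CPM in ago59, 49.3, 49.3 and 53.5 CPM in ago5, 18.4, 30.5 and 18.4 CPM in ago9, and 108, 91.1 and 122 CPM in wt. All mutant libraries lay below wt, and ago59 was the most scattered group, spanning from the ago9 range to above the ago5 range. Its log2 change over wt was -1.21 ± 0.20 in ago59 (adjusted p = 0.00705 by edgeR). The call was lost without ago59 sperm 2 and without wt sperm 1, with an adjusted p of up to 0.0628.

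**Figure D3:**
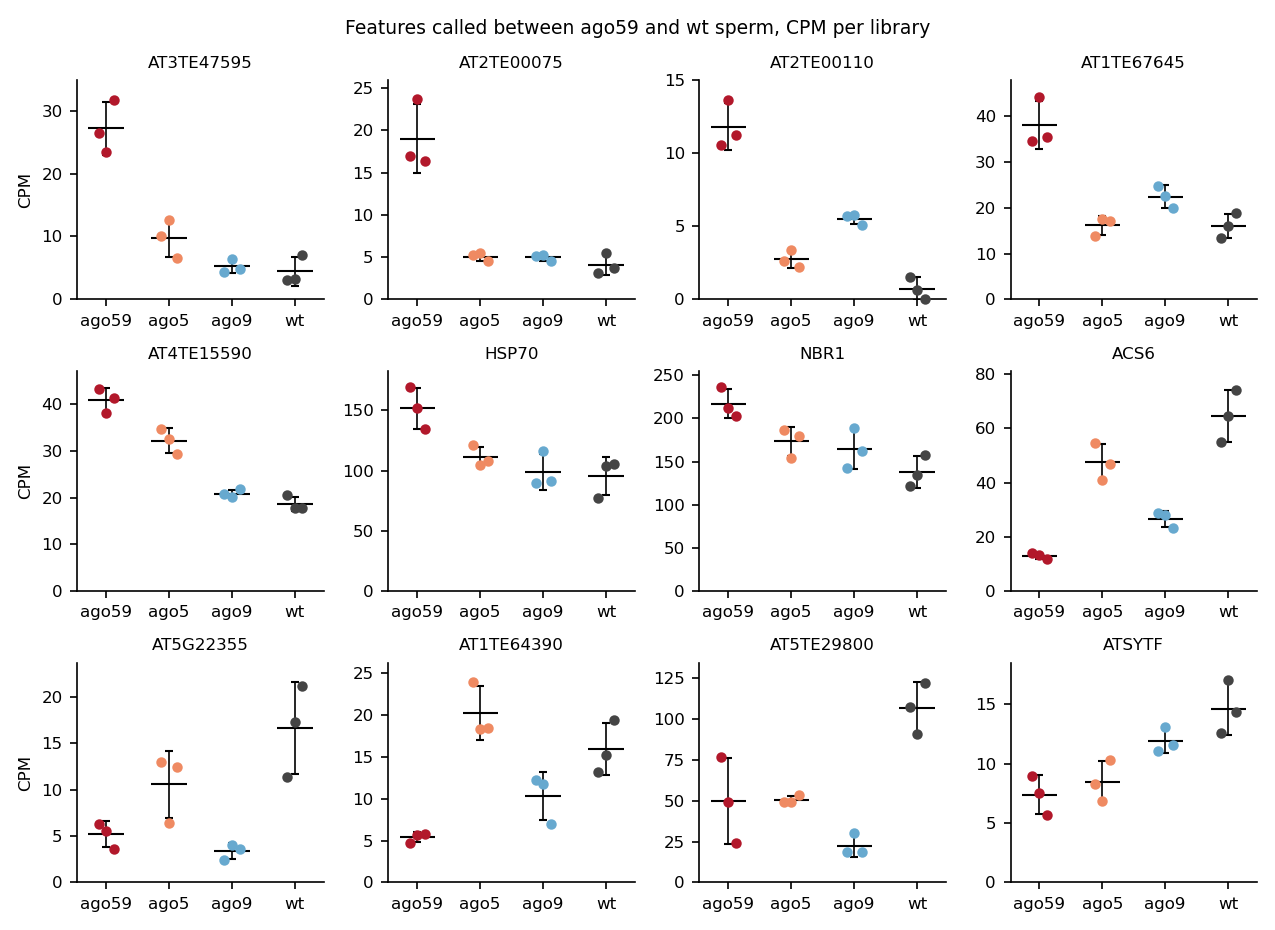
CPM of the 12 features called between ago59 and wt sperm other than AGO5 and AGO9, in the 3 sperm libraries of ago59, ago5, ago9 and wt (points), with the group mean and SD (line and bar); each panel starts at 0. The first 7 panels hold the features that rose and the last 5 those that fell. In each panel the ago59 and wt points are separate, and AT5TE29800 shows the widest ago59 scatter (24.0 to 76.7 CPM).

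The TE identifiers were not in the RefSeq annotation used for the genes, so neither their families nor their positions are given here. Copies of a TE family can share reads, and each row's value therefore depends on how the authors' estimated counts divided such reads between copies.

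The next question was where the double mutant stood relative to the single mutants, from contrasts of ago59 with each single mutant in the same fit of 12 libraries. Of the features tested, 613 differed between ago59 and ago9 (6.37%), 134 higher (1.39%) and 479 lower (4.98%), and 10 differed between ago59 and ago5 (0.104%), 7 higher (0.0727%) and 3 lower (0.0312%). The ago9 group had the highest vegetative marker sums, 15654 to 18307 CPM, against 10464 to 11403 CPM in ago59, and the part of vegetative RNA in the ago59 and ago9 difference was not tested. Of the 12 features called between ago59 and wt other than the targets, 7 were called against ago9 and 5 against ago5. The 4 called against both single mutants were ACS6, AT3TE47595, AT2TE00075 and AT1TE64390. The double mutant was the extreme genotype for each of the 4. The ago59 libraries by which the 12 features were chosen enter these contrasts too, so these calls are not independent of that choice. The same holds for these features in the departure and cell type contrasts below.

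The count against ago9 depended on single libraries: it was 103 without ago59 sperm 1, 197 without ago59 sperm 2, and 302 to 359 without any one ago9 library. GLU2, a glutamate synthase, had 13.3, 12.0 and 6.30 CPM in ago59 and 1.58, 3.12 and 2.34 CPM in ago9, a log2 difference of 1.92 ± 0.28 (adjusted p = 0.00141 by edgeR), with no overlap. In wt GLU2 had 6.10, 10.3 and 6.15 CPM, above every ago9 library and overlapping ago59. ATCHX5, a cation/proton exchanger, had 94.0, 92.1 and 85.6 CPM in ago59 and 130, 210 and 145 CPM in ago9, a log2 difference of -1.03 ± 0.13 (adjusted p = 4.71e-04 by edgeR). Its wt libraries, at 83.1, 98.6 and 120 CPM, lay below every ago9 library and overlapped ago59. ATCHX5 averaged 951 CPM in ago59 vegetative libraries, far above its sperm level, and the part of vegetative RNA in this difference was not tested. SNRK2.3, a kinase of abscisic acid signalling, had 5.88, 3.70 and 4.12 CPM in ago59 and 0.11, 0.28 and 0.47 CPM in ago5, a log2 difference of 3.95 ± 0.53 (adjusted p = 8.59e-04 by edgeR). With 1.55, 2.41 and 2.26 CPM, the wt libraries lay between, above every ago5 and below every ago59 library. The SNRK2.3 locus overlaps AT5G66890 and AT5G09785.

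Against wt, ago5 gave 3 calls (0.0312%) and ago9 gave 324 (3.37%) in the same fit. Of the 12 features called in ago59 other than the targets, 6 were also called in ago9 and 1 in ago5. These comparisons share the wt libraries with ago59 against wt, so the values are only set side by side. The log2 difference of ACS6 from wt was -2.35 in ago59, -0.51 in ago5 and -1.06 in ago9, of which the ago5 value was not called (adjusted p = 0.937 by edgeR). For AT2TE00110 it was 3.90 in ago59, 1.74 in ago5 and 3.03 in ago9, the ago5 value again not being called (adjusted p = 0.993). The log2 difference of AT4TE15590 from wt was 1.09 in ago59, 0.70 in ago5 and 0.35 in ago9, neither single mutant being called. For AT5G22355 it was -1.71 in ago59, -0.70 in ago5, not called, and -2.10 in ago9.

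**Figure D4:**
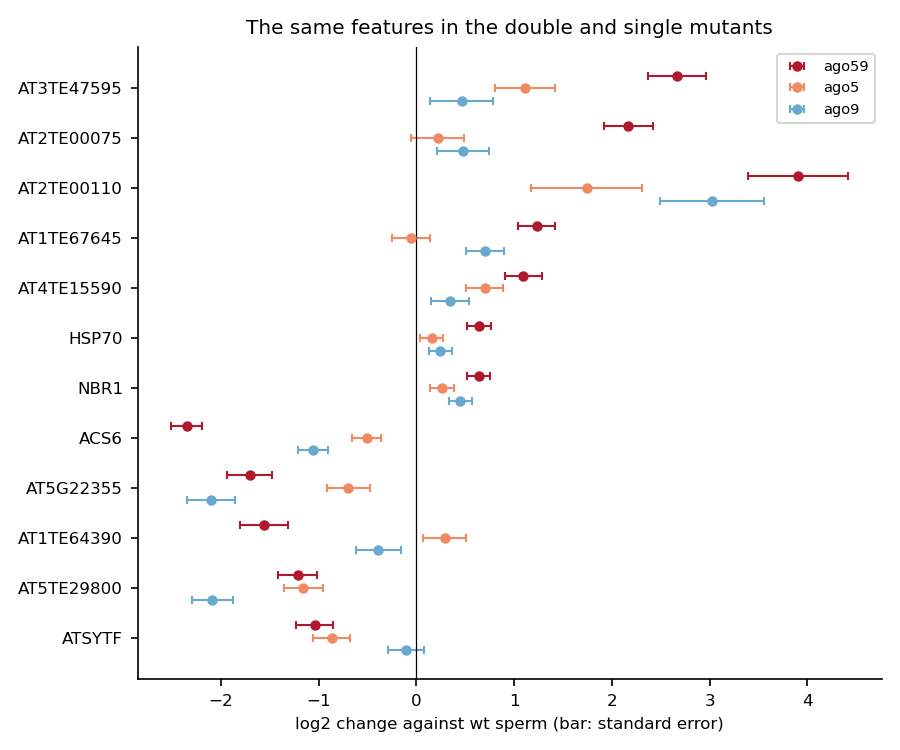
Log2 change against wt sperm (x axis; bars are standard errors) of the 12 features called in ago59 other than AGO5 and AGO9, in ago59, ago5 and ago9. All 3 changes share the wt libraries. Compared across the 3 genotypes, the change of ACS6 is largest in size in ago59 (-2.35), whereas that of AT5TE29800 is largest in ago9 (-2.09).

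A departure of ago59 from the sum of the ago5 and ago9 changes on the log2 scale was called for 1 feature (0.0104%), AT5TE29800. It changed by -1.15 ± 0.20 in ago5 (adjusted p = 0.0446) and by -2.09 ± 0.21 in ago9 (adjusted p = 2.66e-05), while ago59 changed by -1.21 ± 0.20, which left a departure of 2.03 ± 0.29 (adjusted p = 0.0100), all by edgeR. Both single mutants were below wt, and ago59 against ago5 gave -0.06 ± 0.20 (adjusted p = 0.999). The ago59 libraries overlapped those of both single mutants. This call was lost without ago5 sperm 1, ago5 sperm 3, ago9 sperm 1 or ago9 sperm 3, with an adjusted p of up to 0.0848, and without ago59 sperm 1 and wt sperm 1 together (1.59, adjusted p = 0.0759 by edgeR). The departure was 1.47 ± 0.37 for AT2TE00075 (adjusted p = 0.158) and -0.78 ± 0.21 for ACS6 (adjusted p = 0.160), neither of which was called by edgeR. Over all features, 12.8% had an unadjusted p under 0.05 for the departure. The number called was 170 without ago59 sperm 3.

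A further comparison asked whether the ago59 change differed between sperm and the vegetative nucleus, where AGO5 and AGO9 are low. AGO9 averaged 1.07 ± 0.51 CPM in ago59 and 8.09 ± 4.03 CPM in wt vegetative libraries, against 46.7 ± 13.5 CPM in ago59 and 743 ± 35.0 CPM in wt sperm (SD, n = 4 each for vegetative and 3 each for sperm). Of the 14 features called in sperm, 6 passed the filter in the vegetative fit and 1 of them, AGO9, was called there, where 1.69% of all features were called. A different change in the 2 cell types was called for 9 of 11360 features (0.0792%), all more positive in sperm, and AT3TE47595 and HSP70 were among them. The median log2 difference over all 11360 features was itself above 0, at 0.119, and 0.047 with RLE size factors. The summed sperm marker level in vegetative libraries was 683 to 905 CPM (median 791) in ago59 and 827 to 1149 CPM (median 921) in wt, and the part of sperm RNA in these calls was not tested.

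AT3TE47595 had 15.7, 9.52, 10.4 and 21.2 CPM in ago59 and 5.82, 6.56, 10.0 and 11.0 CPM in wt vegetative libraries, which overlapped. Its difference between cell types was 2.23 ± 0.36 on the log2 scale (adjusted p = 0.0184 by edgeR). HSP70 had 1.25, 1.18, 1.31 and 0.52 CPM in ago59 and 1.68, 1.27, 3.09 and 2.44 CPM in wt vegetative libraries, a level near that of a few reads, and its difference was 1.91 ± 0.33 (adjusted p = 0.0225 by edgeR). These calls depended on the scaling: no feature was called with RLE size factors, and leaving out a single library gave between 0 and 16 calls. AT3TE47595 was called in 7 of 14 and HSP70 in 5 of 14 of those leave-out fits.

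As a whole, TE rows took overlapping shares of the counts in ago59 and wt. The share was 13.7%, 14.4% and 17.5% in ago59 and 16.9%, 14.7% and 13.1% in wt, with means of 15.2% ± 1.99 in ago59 and 14.9% ± 1.88 in wt (SD, n = 3 each). The groups overlapped, and the difference of 0.302 percentage points had a p of 0.8 in an exact two-sided permutation test, which cannot go below 0.1 with 3 libraries a group. Most of this share came from 5 rows.

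AT4TE30225, AT1TE40360, AT2TE84980, AT1TE62440 and AT2TE27820 together held 93.9% to 96.6% of the TE counts in ago59 and 94.4% to 96.7% in wt. AT4TE30225 alone took 5.52%, 6.49% and 7.66% of all counts in ago59 and 6.53%, 6.29% and 4.98% in wt. None of the 5 was called, with log2 changes from -0.17 to 0.13. With these 5 rows left out, TE rows took 0.965%, 0.693% and 0.709% in ago59 and 0.674%, 0.628% and 0.836% in wt, again overlapping (difference 0.0769 points, exact permutation p = 0.5). The calls on single TE rows therefore stood beside no detectable change in the total at this number of libraries.

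**Figure D5:**
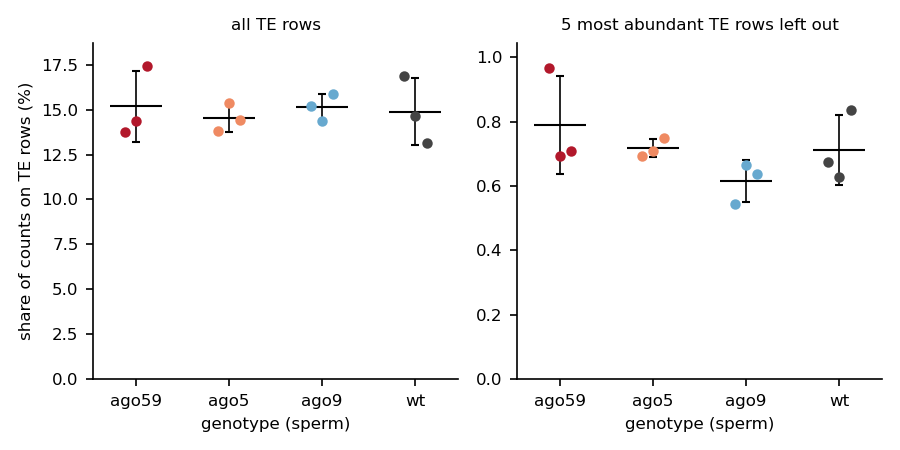
Share of counts on TE rows in each sperm library (points) by genotype, with the group mean and SD, for all TE rows (left) and with the 5 most abundant rows left out (right). The ago59 and wt points overlap in both panels, at 13.1% to 17.5% on the left and 0.628% to 0.965% on the right.

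Genes of small RNA and chromatin pathways were read as lists. Of 16 small RNA biogenesis genes, 8 passed the filter, none was called and 0 had an unadjusted p under 0.05 (median log2 change -0.06, against 0.00 over all features). DCL1, the Dicer that makes microRNAs, averaged 22.5 ± 7.21 CPM in ago59 and 24.5 ± 7.14 CPM in wt. AT2G19910, an RNA-dependent RNA polymerase gene, averaged 32.1 ± 10.7 CPM in ago59 and 33.0 ± 5.02 CPM in wt, and AT2G19930, another of that family, 3.41 ± 0.24 CPM in ago59 and 4.61 ± 0.91 CPM in wt (SD, n = 3 each).

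Of 18 genes of RNA-directed DNA methylation, 6 passed the filter and none was called, with an unadjusted p under 0.05 for 2, DRM3 and SUVH9 (median 0.24). DRM3, a relative of the de novo methyltransferase DRM2 that lacks catalytic activity, had 34.0, 32.4 and 23.5 CPM in ago59 and 18.9, 17.9 and 16.1 CPM in wt. The groups did not overlap, but the log2 change of 0.69 ± 0.16 had an adjusted p of 0.181 by edgeR. DRM3 overlaps AT3G17300. SUVH9, which helps recruit the methylation machinery, averaged 2.02 ± 1.65 CPM in ago59 and 0.59 ± 0.30 CPM in wt, and CHR40, a chromatin remodeller of the CLASSY family, 29.6 ± 5.39 CPM in ago59 and 30.9 ± 5.38 CPM in wt (SD, n = 3 each). Leaving out wt sperm 1 brought DRM3 past the threshold (adjusted p = 0.0466 by edgeR); with DESeq2 neither it nor any other uncalled list gene named here was called.

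Of 18 genes of DNA methylation and silencing, 11 passed, none was called and 0 had an unadjusted p under 0.05 (median -0.05). MET1, the maintenance methyltransferase, averaged 931 ± 220 CPM in ago59 and 924 ± 64.2 CPM in wt. CHR1, the remodeller also known as DDM1, averaged 783 ± 35.3 CPM in ago59 and 690 ± 82.8 CPM in wt (SD, n = 3 each). Both are thus abundant in these libraries. HDA6, a histone deacetylase, averaged 7.59 ± 1.22 CPM in ago59 and 9.38 ± 1.40 CPM in wt, and VIM1, a partner of MET1, 47.1 ± 14.9 CPM in ago59 and 50.4 ± 6.32 CPM in wt.

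Sperm identity genes gave no call, with 20 of 21 passing the filter, 0 with an unadjusted p under 0.05 and a median log2 change of -0.02. DAF1, among the most abundant transcripts, had 37601, 47896 and 79443 CPM in ago59 and 68826, 57924 and 44370 CPM in wt. The 2 extremes of those 6 libraries were both ago59, so the groups overlapped. DAZ3 averaged 12194 ± 2557 CPM in ago59 and 10671 ± 2100 CPM in wt, DAA1 628 ± 199 CPM in ago59 and 719 ± 66.2 CPM in wt, and OPT8 276 ± 41.2 CPM in ago59 and 309 ± 34.4 CPM in wt (SD, n = 3 each).

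Of 19 vegetative cell genes, 17 passed and none was called, with an unadjusted p under 0.05 for 3. The log2 change was above 0 for 2 of the 17 (median -0.22, against 0.00 over all features). The lowest p-values were those of ANX2, a receptor kinase of pollen tube integrity, and AT4G39110, a malectin-type receptor kinase. For both, every ago59 library lay below every wt library, which held for 1.91% of all features tested. ANX2 averaged 102 ± 18.1 CPM in ago59 and 132 ± 16.2 CPM in wt (adjusted p = 0.479), and AT4G39110 averaged 236 ± 33.4 CPM in ago59 and 310 ± 36.9 CPM in wt (adjusted p = 0.502), both tested by edgeR with n = 3 each. VGD1, a pectin methylesterase of the pollen tube, averaged 6281 ± 490 CPM in ago59 and 6865 ± 304 CPM in wt, and VGDH1, its close homologue, 2225 ± 305 CPM in ago59 and 2399 ± 252 CPM in wt. Reads may be divided between these 2 homologues.

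Of 16 cell cycle and replication genes, 13 passed and none was called, with an unadjusted p under 0.05 for 1, CYCB1;1 (median 0.02). CYCB1;1, a mitotic cyclin, had 10.9, 8.03 and 3.27 CPM in ago59 and 2.03, 4.28 and 3.64 CPM in wt, which overlapped in the third ago59 library (adjusted p = 0.420 by edgeR). E2F3 averaged 11.9 ± 4.59 CPM in ago59 and 7.61 ± 1.82 CPM in wt, PRL, the replication helicase subunit MCM7, 1737 ± 336 CPM in ago59 and 1634 ± 189 CPM in wt, and CDT1A 573 ± 60.5 CPM in ago59 and 588 ± 60.4 CPM in wt (SD, n = 3 each).

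Beyond the called features, 8 with higher and 8 with lower CPM in every ago59 library came next by p-value and were not called, with adjusted p from 0.0508 to 0.181 for the higher and from 0.0802 to 0.280 for the lower ones by edgeR. Besides HSP17.4 and DRM3, the higher ones were the transmembrane protein gene AT3G44770, the leucine-rich repeat gene AT2G15042, the GRAS transcription factor gene AT1G63100 and the TE rows AT4TE08980, AT3TE66895 and AT4TE42950. AT3G44770 had 91.8, 77.0 and 53.2 CPM in ago59 and 31.2, 52.7 and 49.2 CPM in wt, the ago59 libraries lying just above the highest wt library at their lowest. It was nearest the threshold (log2 0.69 ± 0.14, adjusted p = 0.0508 by edgeR) and was called in 5 of 9 other settings, among them RLE scaling, DESeq2 and robust quasi-likelihood. Besides LARP1a, the lower ones were the protein kinase gene AT3G46160, MOS2, a nucleic acid-binding protein of microRNA processing and immunity, AT5G61660, AT1G06050 and the TE rows AT1TE41800, AT2TE75650 and AT3TE69070. MOS2 averaged 31.5 ± 5.32 CPM in ago59 and 43.7 ± 11.3 CPM in wt, and AT3G46160 34.9 ± 9.97 CPM in ago59 and 57.1 ± 10.4 CPM in wt (SD, n = 3 each). AT3G46160, AT2G15042, AT1G63100, AT4TE08980, AT4TE42950 and AT1TE41800 were likewise called without the low-count filter and with DESeq2. Leaving out ago59 sperm 1 and wt sperm 1 together also brought a call for AT4TE08980.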

How the data were processed

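Expected counts (estimated counts per feature) for 67 libraries are what the authors deposited, in 1 table (3.42% of the sperm values not whole), with 29696 gene rows, 31189 TE rows and 1 mCherry reporter row. The submitters' processing notes name the build TAIR10 and DESeq2, with no role or version; the aligner, the counter and strand handling are not given in the sources used here. Columns were matched to samples by name; the 7 wt pollen columns that carry 21 were assigned by cell type and replicate number, and 0 columns were left over. Gene symbols and neighbours came from RefSeq (assembly TAIR10.1, 28929 gene rows matched); no coordinates are given because the builds differ in name.

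Expected counts were rounded and all 12 sperm libraries were fitted by genotype with edgeR 4.0.16 in R 4.3.3 (TMM, filterByExpr with minimum count 10 and minimum total 15, estimateDisp, glmQLFit, glmQLFTest). Contrasts were ago59 against wt, ago9 and ago5, and ago59 + wt - ago5 - ago9; cell types were compared in a fit of 4 groups. Every adjusted p is from edgeR with Benjamini-Hochberg adjustment over all features tested, and calls are those under 0.05. SE is the size of the log2 change divided by the square root of F. CPM is scaled by total counts alone, whereas log2 changes use TMM factors (0.759 to 1.25). The biological coefficient of variation was 0.19 in sperm. Shares of TE rows were compared with an exact permutation test (scipy 1.17.1). The test scripts were checked on simulated data. No pair of the 12 replicate pairs agreed within counting noise (chi-square per degree of freedom at least 11.0).

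The comparison and the 10 gene lists were chosen with earlier results of these data known. Features named are the targets, all called features, then the uncalled features without overlap with the smallest p (to 15 per direction in all; 8 of each direction were taken), for each list its called members or else the 2 with the smallest p and the 2 most abundant, and up to 3 called features per direction of the other contrasts. Alternatives were RLE scaling, no low-count filter, DESeq2 1.42.0, robust quasi-likelihood, leaving out rRNA and organelle genes or the 5 top TE rows, a replicate block, other groups fitted, and leaving out each library.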

Additional observations from a re-analysis of the deposited data

Results flagged for a closer look

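Of the 9 features for which the test of the difference itself found an ago59 change in sperm that differed from that in vegetative nuclei (edgeR, log2 scale, sperm minus vegetative), 5 are described. These were AT3TE47595 (2.23, adjusted p = 0.0184), AT3G18950 (1.80, adjusted p = 0.0184), AT3G13440 (1.14, adjusted p = 0.0225), HSP70 (1.91, adjusted p = 0.0225) and AT2TE27820 (1.69, adjusted p = 0.0390). AT3G18950, a WD40 repeat protein gene, averaged 197 ± 24.6 CPM in ago59 and 186 ± 31.7 CPM in wt sperm, and had 1.02, 0.59, 0.48 and 0.91 CPM in ago59 and 1.68, 1.73, 2.71 and 1.99 CPM in wt vegetative libraries. AT3G13440, a methyltransferase gene that overlaps AT3G13438, averaged 90.8 ± 12.4 CPM in ago59 and 83.7 ± 9.31 CPM in wt sperm, and had 3.87, 3.24, 3.34 and 4.81 CPM in ago59 and 4.59, 6.44, 7.09 and 6.98 CPM in wt vegetative libraries. AT2TE27820, one of the 5 most abundant TE rows, averaged 4658 ± 864 CPM in ago59 and 4883 ± 774 CPM in wt sperm, and had 14.4, 11.9, 13.6 and 20.9 CPM in ago59 and 24.2, 39.0, 43.5 and 68.2 CPM in wt vegetative libraries. For AT3G18950 and AT2TE27820 the vegetative groups did not overlap, and all 3 features were far more abundant in sperm than in vegetative libraries. Summed sperm markers had a median of 791 CPM in ago59 and 921 CPM in wt vegetative libraries, and the part of sperm RNA in these differences was not tested. Over 14 fits that each left out a library, the calls held in 8 for AT3G18950, 4 for AT3G13440 and 3 for AT2TE27820, with an adjusted p of up to 0.177, 0.130 and 0.456 over all alternatives in that order.

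AT5TE29800 departed from the sum of the single mutants' changes in sperm (2.03, adjusted p = 0.0100 by edgeR), with its values given above. It kept this call in 7 of 8 settings and in 8 of 12 leave-out fits.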

How the results depend on the processing

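With edgeR, ago59 against wt sperm gave 14 calls, 95 (54 higher, 41 lower) without the low-count filter and 24 (13 higher, 11 lower) with DESeq2; all 14 were among both. Other settings gave 13 to 17 calls, 12 without ago59 sperm 1 and wt sperm 1 (an alternative chosen after seeing the data, sharing 10 calls), and leaving out a library of either group gave 10 to 16. AGO5, AGO9, ACS6, AT3TE47595, AT2TE00075, AT2TE00110, AT5G22355 and AT1TE67645 were called in every one of these fits. Over 69 named features and all their alternatives 27 values lost and 31 gained a call. No called one changed sign, whereas 19 of the 55 not called had log2 values on both sides of 0.

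The departure from the sum of the single mutants was called for 1 feature, for 120 (74 higher, 46 lower) without the filter, 166 (43 higher, 123 lower) with DESeq2, 4 with robust quasi-likelihood, 2 with the replicate block, 0 without ago59 sperm 1 and wt sperm 1 (717 with an unadjusted p under 0.05), and 0 to 170 on leaving out a library. Without the filter the median of all features moved by 0.255 in this contrast. Against ago9, 613 calls became 103 to 785 on leaving out a library. Against ago5, 10 calls became 63 without the filter (40 higher, 23 lower), 19 with DESeq2 (11 higher, 8 lower) and 6 to 12 on leaving out a library. The difference between cell types gave 9 calls, 0 with RLE, 79 without the filter (60 higher, 19 lower), 20 with DESeq2, 4 without the 5 top TE rows, 4 with the replicate block, 1 with all 8 pollen groups, 4 without ago59 sperm 1 and wt sperm 1, and 0 to 16 on leaving out a library. The fit with RLE had 985 features with an unadjusted p under 0.05. The TE share difference of 0.302 points ranged from -0.830 to 1.29 on leaving out a library, reversing without ago59 sperm 3 (-0.830) or wt sperm 3 (-0.576), and was 2.02 without ago59 sperm 1 and wt sperm 1. The causes were not tested.

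Correlations of same-numbered deviations of ago59 and wt sperm were weak, at -0.036 to 0.052. Features with a count, however, fell in the same order of replicate number in both groups. They were 21465, 17719 and 16079 in ago59 and 20582, 17538 and 15146 in wt. The order differed in ago5 (15649, 16626 and 16485) and in ago9 (17247, 16118 and 18349). Other measures ran in opposite order by replicate number in ago59 and wt. TMM factors were 1.25, 1.09 and 0.825 in ago59 and 0.848, 1.02 and 1.21 in wt. The TE share likewise rose with the number in ago59 and fell in wt. Whether a replicate number marks a shared batch can therefore not be told. With the replicate block, ago59 against wt kept 14 calls and the TE share difference 0.302.

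Limits: with 3 libraries a group, a p above the threshold does not show that a feature was unchanged, and 353 of 31189 TE rows had enough counts to be tested.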

Other observations

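Of 371 features with an estimated change over 1 on the log2 scale, 359 were not called. For 143 of the 359 the ago59 and wt libraries did not overlap, against 5.06% of all features tested, a set not chosen by size. The largest of the uncalled changes, chosen after their values were seen, rested on 1 or 2 libraries. ATMG00480 had 87, 64 and 0 counts in ago59 sperm and 0 in every wt library. AT1G16100 had 0 in every ago59 library and 15, 0 and 42 counts in wt. Both are examples of features present in some libraries of a group and absent from others.

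Some TE rows with higher counts also differed widely without a call. AT4TE03415 had 133, 111 and 151 CPM in ago59 and 18.9, 19.6 and 67.7 CPM in wt sperm, with no overlap (log2 1.99 ± 0.51, adjusted p = 0.260 by edgeR). AT5TE37380 had 96.2, 94.0 and 103 CPM in ago59 and 0, 34.6 and 54.1 CPM in wt (adjusted p = 0.607 by edgeR). AT5TE37400, whose number follows closely, had 0, 0 and 3.63 CPM in ago59 and 55.0, 31.3 and 0 CPM in wt, where the highest ago59 library was above the lowest wt library (adjusted p = 0.442 by edgeR). The ago59 libraries agreed more closely with each other than the wt libraries did for AT4TE03415 and AT5TE37380.

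The mCherry reporter row held 2, 4 and 0 counts in ago59 sperm and 1, 1 and 0 in wt sperm, and 0 in the ago5 and ago9 sperm libraries. At most 3 counts lie within the floor used here, so 1 ago59 library exceeded it.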
